A study of Mus musculus with 12 samples.

Results

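Tubulin isotypes and proteins that bind or regulate neuronal microtubules were followed in striatal cell lines that carry a short or an expanded huntingtin repeat. The members are the genes Tubb3, Tubb2a, Tubb2b, Tubb6, Tuba1a, Tuba4a, Stmn1, Map1b, Mapt and Bex1, and every probe annotated to one of these symbols in the unnormalized signal table was taken. This gave 15 of the 44505 probes, for 9 of the 10 genes (the table names 17056 genes). Tuba4a had no probe under its symbol and was not analysed here.

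The cells are immortalised lines from the striatum of homozygous knock-in mice with 7 (Hdh7/7) or 109 (Hdh109/109) CAG repeats in the Hdh allele. Each line was measured untransfected, transfected with an empty vector, and transfected with a construct labelled DNRest. That makes 6 groups of 2 arrays, 12 Illumina bead arrays in all. The labels give only the construct's name, and the treatment field says that cells were untreated. The name is read here as a dominant-negative Rest, which encodes REST, the factor that keeps neuronal genes silent outside neurons. Each genotype is represented by 1 line, so a difference between the lines cannot be told apart from a difference between clones. The series' design text calls the RNA samples biological replicates, but no label names separate cultures. The p-values therefore cover only how far paired arrays scatter, and that scatter may be technical. The source name of 6 arrays disagrees in genotype with the title and the genotype characteristic. Groups follow the titles.

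Microtubules are hollow polymers of alpha- and beta-tubulin heterodimers, and mammals encode several isotypes of each subunit. Tubb3, Tubb2a, Tubb2b and Tuba1a are abundant in developing neurons, whereas Tubb6 is found in many non-neuronal cells. Stathmins bind free tubulin dimers and favour depolymerisation, while MAP1B and tau (Mapt) bind along the polymer and support axon growth. Bex1 is a small brain-expressed adaptor protein of the p75 neurotrophin receptor and is not itself a microtubule protein.

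The stretches before the annotated starts of Tuba1a, Map1b and Bex1 are shown because these genes carried most of the differences below and have an entry in the RefSeq promoter table (GRCm38.p6). An entry was present for 6 of the 10 members. The 250 bases before the start lie on the minus strand at chr15:98953502-98953751 for Tuba1a, at chr13:99516603-99516852 for Map1b and at chrX:136215514-136215763 for Bex1. They are written 5′ to 3′ on the gene's strand. Capitals mark matches, on either strand, to the GC box GGGCGG, the CCAAT box CCAAT and the left and right parts of the REST element, TTCAGCACC and GGACAG.

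Tuba1a: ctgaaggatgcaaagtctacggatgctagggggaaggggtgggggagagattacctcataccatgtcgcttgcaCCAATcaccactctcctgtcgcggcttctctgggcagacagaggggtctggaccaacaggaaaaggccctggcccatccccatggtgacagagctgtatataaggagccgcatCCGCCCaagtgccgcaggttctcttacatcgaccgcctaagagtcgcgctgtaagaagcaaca
Map1b: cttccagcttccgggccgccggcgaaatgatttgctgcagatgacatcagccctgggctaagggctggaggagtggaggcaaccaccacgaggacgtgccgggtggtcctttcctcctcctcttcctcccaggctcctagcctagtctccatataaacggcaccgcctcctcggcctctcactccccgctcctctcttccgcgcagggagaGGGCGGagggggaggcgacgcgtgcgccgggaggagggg
Bex1: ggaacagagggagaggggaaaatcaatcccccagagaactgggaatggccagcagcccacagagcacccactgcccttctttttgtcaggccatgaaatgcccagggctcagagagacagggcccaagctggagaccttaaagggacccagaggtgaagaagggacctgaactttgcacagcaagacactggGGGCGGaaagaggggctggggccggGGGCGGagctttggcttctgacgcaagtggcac

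Tuba1a held 1 GC box match (position -63, counted from the first transcribed base as 0) and 1 CCAAT match (position -176). Bex1 held 2 GC box matches, at positions -58 and -33, with no CCAAT match. Map1b held a GC box match at position -39 and another at position 9, just past the stretch shown. Neither part of the REST element was matched in these 3 windows or in that of Tuba4a, while Tubb3 and Tubb2a each held a match to the right part, at positions 12 and 24. Over the 32851 windows in the table, which also cover 50 bases from the start, 35.7% held a GC box, 37.4% a CCAAT match, 0.371% the left part and 22.2% the right part. These are letter matches only.

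Between 10295 and 14370 probes were detected per array, at a detection p under 0.01, and the 2 arrays limit the precision of every group. The second arrays of the Hdh7/7 empty vector group and of the untransfected Hdh109/109 group had raw medians of 161 and 156, against 70.2 to 104 on the other 10 arrays. Markers of mature neurons (10 listed) were detected on no array, and of 7 measured striatal projection neuron markers only Penk was detected, on the 6 Hdh109/109 arrays. Of 8 neural progenitor markers, 5 were detected in each Hdh7/7 group and 2 in each Hdh109/109 group. Their summed level was 5503 to 6956 in Hdh7/7 and 660 to 964 in Hdh109/109 cells on the linear normalised scale. Of 9 mesenchymal markers, 8 were detected in each Hdh109/109 group and 3 to 5 in the Hdh7/7 groups, with sums of 23585 to 27280 against 8510 to 11939. Acta2 weighs most in these sums, with group means of 12.96 to 14.22 on the log2 scale. Of the 8 mesenchymal markers tested, 6 were called higher and 1 lower in Hdh109/109 cells in each state. These marker lists move with the lines, and their part in the differences between the lines was not tested. The probe for Htt was lower in untransfected Hdh109/109 cells by at least 1.85-fold (limma, adjusted p = 6.53e-05), and the Rest probe was detected on no array.

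Of the 15 member probes, 11 were tested, covering 8 genes. Those for Tubb3, Tubb6, Tuba1a and Stmn1 and 2 of the 3 Map1b probes were detected on all 12 arrays, and the Tubb2b probe tested on 11. The third Map1b probe was detected on 8 arrays, the Bex1 probes on 8 and 6, and 1 Mapt probe on 5. The Tubb2a probe, the other Tubb2b probe and the other 2 Mapt probes were detected on no array and were not tested. Levels are log2 normalised signals, and no probe's level is set against another probe's. Tubulin genes resemble each other closely, and how far a probe also reads a near-identical isotype was not tested.

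Tubb6 and Map1b were higher, and Bex1 lower, in Hdh109/109 than in Hdh7/7 cells in all 3 transfection states. Without transfection 6 of the 11 member probes were called at an adjusted p under 0.05 (limma, Benjamini-Hochberg over all probes tested), 4 higher and 2 lower in Hdh109/109 cells, beside 35.6% of all probes tested (17.6% higher and 18% lower). With the empty vector 7 were called, 5 higher and 2 lower, beside 43.2% of all probes (22.9% and 20.3%). With DNRest 5 were called, 3 higher and 2 lower, beside 36.8% (18.2% and 18.6%). Averaged over the 3 states 8 were called, 5 higher and 3 lower, beside 57.7% (29.5% and 28.2%). Much of the array differs between the lines, and these counts are to be read against those shares. The median log2 difference over the 11 probes was 0.24 without transfection, 0.36 with empty vector, 0.03 with DNRest and 0.24 on average, while that over all probes lay between -0.02 and 0.04.

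**Figure D1:**
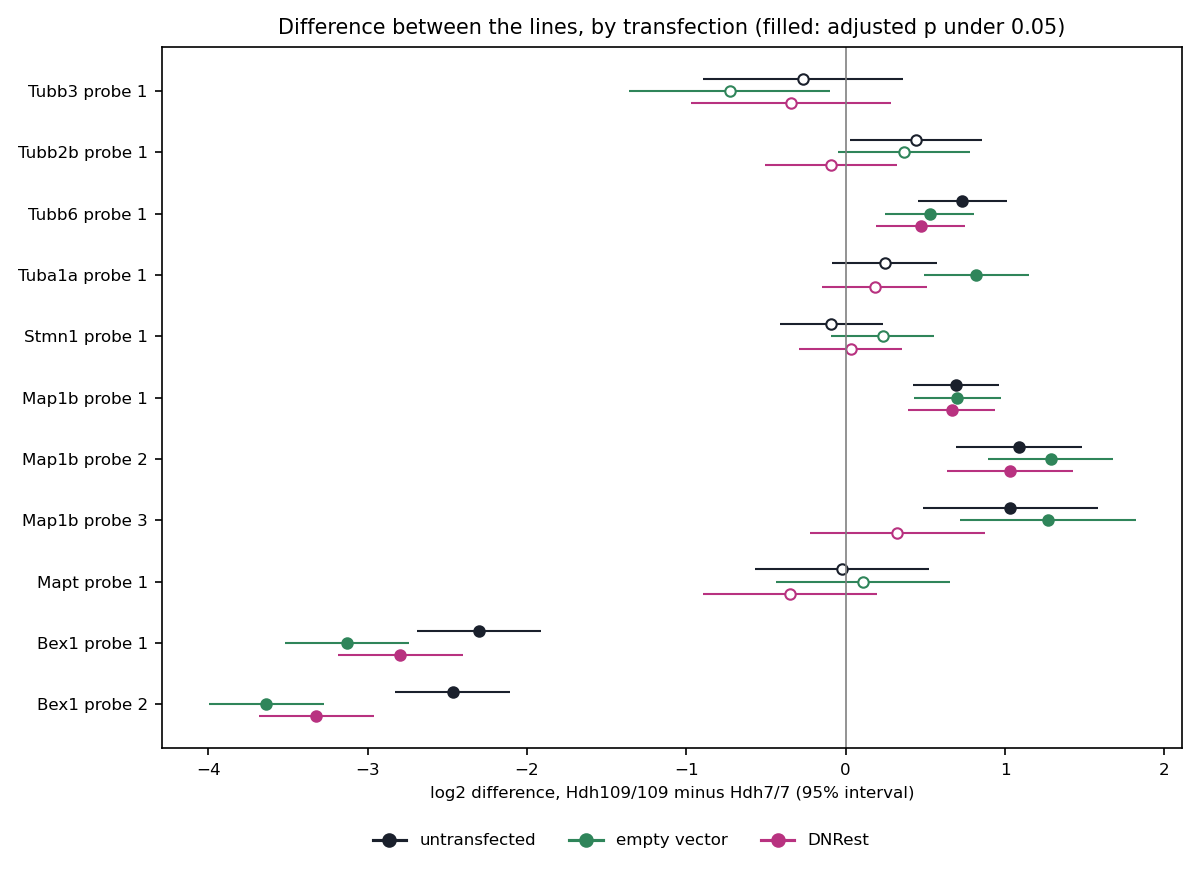
Log2 difference between the lines (Hdh109/109 minus Hdh7/7, x axis) for the 11 tested probes (y axis) in untransfected, empty vector and DNRest cells. Bars are 95% intervals from the limma fit and filled points have an adjusted p under 0.05. Tubb6 and Map1b lie to the right of 0 and both Bex1 probes to the left in each state.

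Among the beta-tubulins, Tubb6 was called between the lines in each state. In Hdh7/7 cells its log2 level was 12.79 and 12.65 on the untransfected arrays, 13.08 and 13.09 with empty vector and 13.05 and 12.98 with DNRest. The Hdh109/109 arrays gave, state by state, 13.43 and 13.47, 13.51 and 13.72, and 13.47 and 13.50. Every Hdh109/109 array lay above every Hdh7/7 array, and within Hdh7/7 the untransfected arrays were the lowest. The difference was 0.73 ± 0.12 (SE) without transfection (1.66-fold, limma adjusted p = 0.00135), 0.53 ± 0.12 with empty vector (1.44-fold, adjusted p = 0.00715) and 0.47 ± 0.12 with DNRest (1.39-fold, adjusted p = 0.0146). The call with DNRest was lost when any 1 of the 4 arrays compared was left out, with adjusted p of 0.0554 to 0.0857. Under median scaling the calls without transfection (0.66, adjusted p = 0.13) and with DNRest (0.35, adjusted p = 0.483) were lost, and with only the 4 arrays compared that with empty vector (adjusted p = 0.103).

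Tubb3 encodes class III beta-tubulin, the isotype used most widely to mark neurons, and was detected at a low level on all arrays of both lines. In Hdh7/7 cells its log2 level was 6.47 and 6.74 untransfected, 6.66 and 7.26 with empty vector and 7.09 and 7.05 with DNRest. For Hdh109/109 the values were 6.00 and 6.67, 6.25 and 6.21, then 7.06 and 6.39. The lines overlapped without transfection and with DNRest, and did not overlap with the empty vector. Where the raw medians of a pair lay well apart, the array of higher median gave the higher level. These levels were 7.26 (Hdh7/7 empty vector, median 161), 6.67 (untransfected Hdh109/109, 156) and 7.06 (Hdh109/109 DNRest, 104). The part of background in them was not tested. Averaged over the states Tubb3 was lower in Hdh109/109 cells by a log2 difference of -0.45 ± 0.16 (1.36-fold, limma adjusted p = 0.0381), while no single state passed the test. With empty vector the difference of -0.73 (adjusted p = 0.0606) passed under 8 of 20 alternatives, offset 50 (adjusted p = 0.0433) among them. Some of the 8 only left out arrays outside this comparison, so the difference itself stayed at -0.73. Another left only the array of median 161 in the Hdh7/7 empty vector group (-1.03). Under median scaling the empty vector difference was 0.01 (limma adjusted p = 0.986), or -0.61 relative to the median of all probes. Leaving out 1 array at a time ended the call of the average over the states for 8 of the 12 arrays, with adjusted p up to 0.105, as did testing all probes without a detection filter (0.1). Under median scaling the average difference was -0.09 (adjusted p = 0.706).

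Tubb2b, a beta-tubulin of migrating and axon-growing neurons, had log2 levels of 6.27 to 6.97 in Hdh7/7 cells (median 6.66) and of 6.66 to 7.31 in Hdh109/109 cells (median 6.85). The lowest, 6.27 on the second Hdh7/7 empty vector array, was not detected. The ranges overlapped, and the average difference of 0.24 ± 0.11 was not called (limma adjusted p = 0.0811). It passed under median scaling (0.58, adjusted p = 0.00411), which moved the median of all probes to 0.26. Relative to that median it was 0.32. Without either the first Hdh7/7 empty vector array or the first untransfected Hdh109/109 array the average difference was 0.30. Either omission leaves its group only the array of raised raw median (161 and 156). By state the difference was 0.44 without transfection, 0.36 with empty vector and -0.09 with DNRest, none of them called (adjusted p of 0.0913, 0.138 and 0.734). The empty vector value passed under median scaling only (1.01, adjusted p = 0.00475). Relative to the median of all probes, which moved to 0.62, it was 0.39. The Tubb2a probe, for a closely related isotype, stayed between 4.55 and 5.19 on arrays of both lines without being detected, so that only a bound on its level is given by these data.

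Tuba1a, the main alpha-tubulin of young neurons, had levels that differed by line with the empty vector. In Hdh7/7 cells its log2 level was 13.16 and 13.10 untransfected, 12.55 and 12.55 with empty vector and 12.37 and 12.43 with DNRest. Hdh109/109 cells gave 13.39 and 13.36 without transfection, 13.18 and 13.56 after the empty vector and 12.49 and 12.68 after DNRest. In both lines the DNRest arrays lay below the untransfected ones, and the lines did not overlap in any state. In falling order, the untransfected and empty vector Hdh109/109 groups overlapped, untransfected Hdh7/7 lay below them, the Hdh109/109 DNRest and Hdh7/7 empty vector groups overlapped next, and Hdh7/7 with DNRest was the lowest. With empty vector Tuba1a was 1.77-fold higher in Hdh109/109 cells (log2 difference 0.82 ± 0.15, limma adjusted p = 0.00165). Without transfection the difference was 0.24 ± 0.15 (adjusted p = 0.23) and with DNRest 0.18 ± 0.15 (adjusted p = 0.365). Averaged over the states it was 0.42 ± 0.09 (adjusted p = 0.00201).

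**Figure D2:**
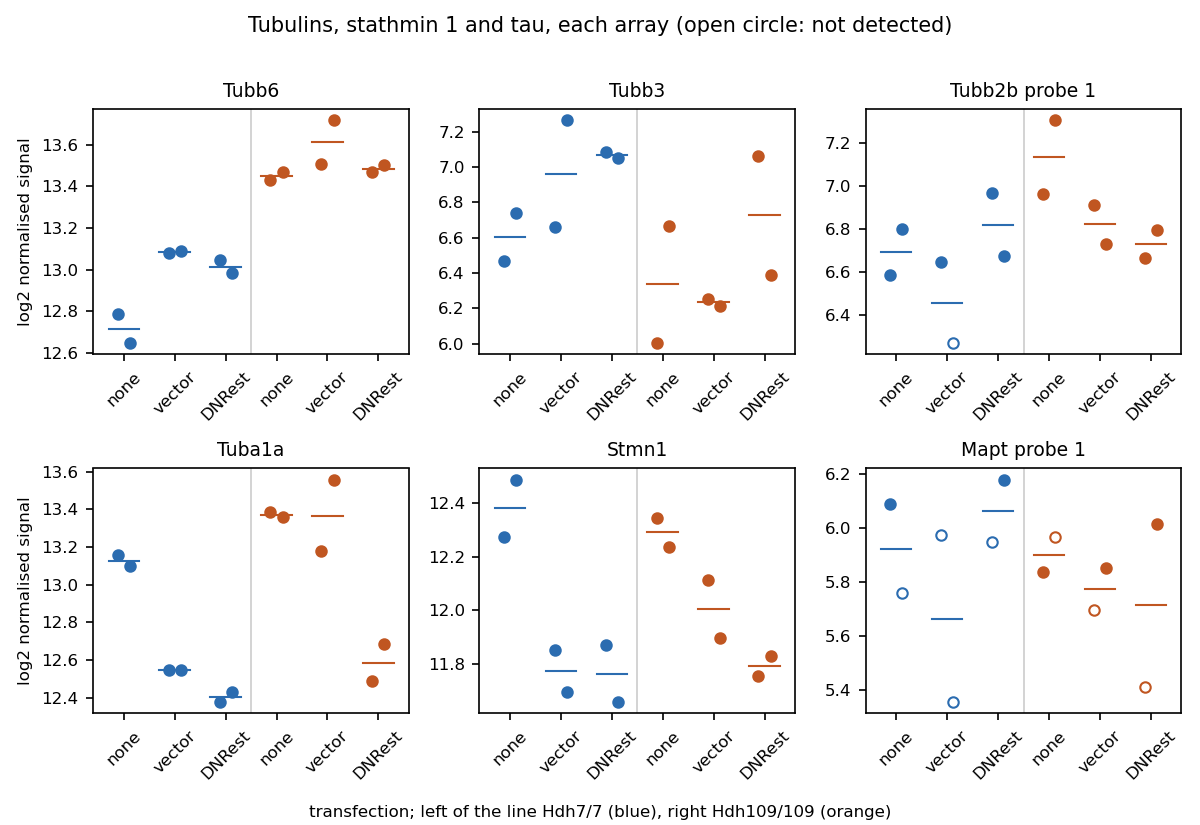
Log2 normalised signal (y axis, a separate scale per gene) of Tubb6, Tubb3, Tubb2b, Tuba1a, Stmn1 and Mapt on each array, by transfection (x axis), with Hdh7/7 in blue and Hdh109/109 in orange. Horizontal lines are the means of 2 arrays and open circles are arrays without detection. The lines do not overlap in any state for Tubb6 and Tuba1a, and overlap in every state for Mapt. For Stmn1 they overlap except with the empty vector.

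Map1b, which encodes a protein that stabilises microtubules in growing axons, was higher in Hdh109/109 cells by all 3 of its probes. By the first probe the Hdh7/7 arrays ran from 8.65 to 8.87 (median 8.80) and the Hdh109/109 arrays from 9.38 to 9.52 (median 9.47). By the second they ran from 7.24 to 7.74 (median 7.42) and from 8.26 to 8.82 (median 8.58). The lines did not overlap by either probe, and neither probe was called between transfection states, except the second under median scaling (empty vector in Hdh7/7 cells, -0.92, adjusted p = 0.0238, and -0.47 relative to the median of all probes). The first probe gave log2 differences of 0.69 ± 0.12 untransfected, 0.70 ± 0.12 with empty vector and 0.66 ± 0.12 with DNRest (1.62-, 1.63- and 1.59-fold, limma adjusted p of 0.00165, 0.00136 and 0.00214). The first of these calls was lost under median scaling (0.68, adjusted p = 0.117). The second gave 1.09 ± 0.18, 1.29 ± 0.18 and 1.03 ± 0.18 (2.13-, 2.44- and 2.04-fold, adjusted p of 0.00103, 0.000315 and 0.00145).

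The third Map1b probe was read near background. In Hdh7/7 cells its log2 level was 5.77 and 5.70 untransfected and 5.90 and 5.23 with empty vector, all undetected, and 6.14 and 6.37 with DNRest, both detected. On the Hdh109/109 arrays, all with detection, it was 6.76 and 6.78, 6.53 and 7.13, then 6.43 and 6.73. The Hdh109/109 level was at least 1.87-fold higher without transfection (limma adjusted p = 0.00896, or 0.0532 without the second untransfected Hdh7/7 array) and at least 1.39-fold higher with empty vector (adjusted p = 0.00258). With DNRest the difference was 0.32 ± 0.25 and was not called (adjusted p = 0.335). The other 2 probes differed in the same direction with DNRest and were called.

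The probe for Mapt that was tested, for the axonal protein tau, gave log2 levels of 5.36 to 6.18 in Hdh7/7 and 5.41 to 6.01 in Hdh109/109 cells, with detection on 2 and 3 of the 6 arrays. No comparison called it, and the 95% interval of the average difference ran from -0.40 to 0.23. The level lies at the edge of detection, so a difference could not be measured well here.

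Stmn1, the ubiquitous stathmin, was detected throughout and was not called between the lines. Its log2 level there was 12.27 and 12.49 untransfected, 11.85 and 11.70 with empty vector and 11.87 and 11.66 with DNRest. For Hdh109/109 cells the levels were 12.35 and 12.24, 12.11 and 11.90, and 11.76 and 11.83. The lines overlapped untransfected and with DNRest, and lay next to each other without overlap with empty vector. The average difference between the lines was 0.06 with a 95% interval of -0.13 to 0.24 (limma adjusted p = 0.579).

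Bex1 showed the widest gap between the lines of the member genes. By its first probe the Hdh7/7 arrays gave 7.71 and 7.94 untransfected, 8.68 and 8.59 with empty vector and 8.74 and 8.62 with DNRest. On the Hdh109/109 arrays it gave 5.64 and 5.40, 5.30 and 5.70, and 5.75 and 6.03, and was detected on 2 of these 6 arrays. By the second probe the Hdh7/7 arrays gave 6.97 and 7.36, 8.12 and 8.21, and 8.14 and 7.81, and the Hdh109/109 arrays 4.51 to 4.75, all undetected. Thus both probes were detected on each Hdh7/7 array, with no overlap between the lines, and within Hdh7/7 the untransfected arrays were the lowest. The Hdh109/109 level by the second probe was at least 2.28-fold lower without transfection (limma adjusted p = 1.95e-06), at least 5.29-fold lower with empty vector (adjusted p = 1.13e-07) and at least 4.00-fold lower with DNRest (adjusted p = 2.19e-07). By the first probe it was at least 3.60-fold lower without transfection (adjusted p = 5.54e-06), and the fitted log2 difference was -3.13 ± 0.17 with empty vector (adjusted p = 5.10e-07) and -2.79 ± 0.17 with DNRest (adjusted p = 1.35e-06). In both transfected states 1 of the 2 Hdh109/109 arrays had no detection, so no fold is given. Without background correction the first probe's differences were -1.26, -1.90 and -1.78 in the 3 states, all still called.

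**Figure D3:**
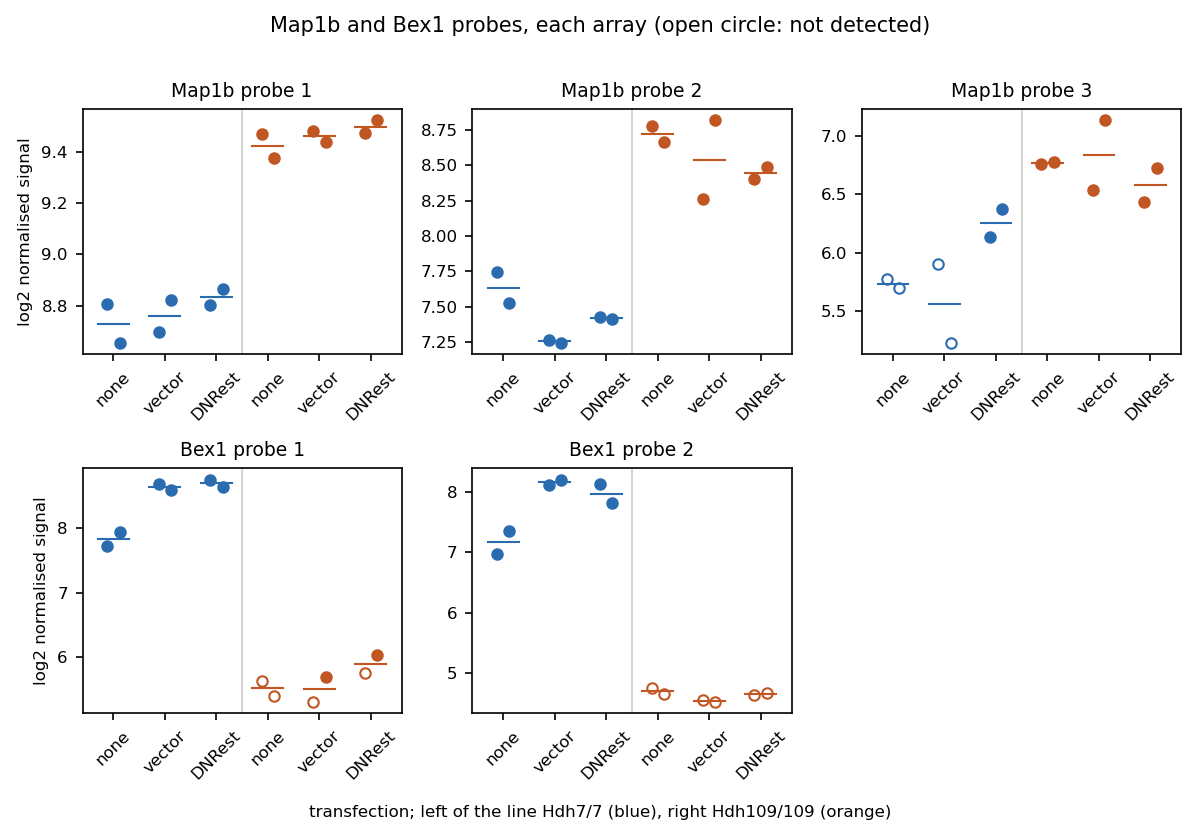
Log2 normalised signal (y axis, a separate scale per probe) of the 3 Map1b and 2 Bex1 probes on each array by transfection (x axis), with Hdh7/7 in blue and Hdh109/109 in orange. Horizontal lines are the means of 2 arrays and open circles are arrays without detection. All Map1b probes are higher and both Bex1 probes lower on the Hdh109/109 arrays.

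The comparison of empty vector with untransfected cells covers transfection together with any difference in culture or array between the groups. The labels do not tell these apart. In Hdh7/7 cells Tuba1a and Stmn1 fell and Bex1 rose with the empty vector. Tuba1a fell by 0.58 on the log2 scale (SE 0.15, limma adjusted p = 0.0264) and Stmn1 fell by 0.61 (SE 0.15, adjusted p = 0.021). Bex1 rose by 0.81 ± 0.17 by its first probe (1.75-fold, adjusted p = 0.0138) and by 1.00 ± 0.16 by its second (2.00-fold, adjusted p = 0.0043). These are 4 of the 11 probes, 2 higher and 2 lower, beside 15.7% of all probes tested (6.17% higher and 9.5% lower). Tubb6 had a difference of 0.37 ± 0.12 in the same direction as Bex1, which did not pass (adjusted p = 0.0736). This Tubb6 difference passed under 4 of 20 alternatives, no background correction (0.36, limma adjusted p = 0.0311) among them. Some of the 4 only left out an array of the other line, so the difference itself stayed at 0.37. Under median scaling it was -0.01, or 0.44 relative to the median of all probes. Without the 2 arrays of highest raw median, both Bex1 calls stood, while Tuba1a (-0.58) and Stmn1 (-0.53) were no longer called (adjusted p of 0.11 and 0.122). The calls of Tuba1a and Stmn1 were also lost without either untransfected Hdh7/7 array or without the second empty vector array, and that of the first Bex1 probe without the first untransfected array. Markers of other cells moved in the same comparison. The astrocyte marker Slc1a3 fell by 1.74 (SE 0.25, limma adjusted p = 0.00274), while the other 4 measured astrocyte markers were detected on no array. The summed level of the 5 was 698 to 793 on the untransfected arrays and 284 to 375 with empty vector, and that of the 9 mesenchymal markers was 11133 to 11939 and 9046 to 10059. Of the 8 mesenchymal markers tested, 4 were called lower and 0 higher with empty vector. Their part in the member differences was not tested. When only the 4 arrays of these groups were fitted, none of the 4 probes was called (adjusted p of 0.089 to 0.127).

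Median scaling in place of quantile normalization moved the median of all probes in this comparison from -0.04 to -0.45, and the split of calls from 940 higher and 1447 lower to 52 higher and 3201 lower. Relative to that median, Tuba1a then stood at -0.53, Stmn1 at -0.61 and the Bex1 probes at 0.74 and 0.92. The unshifted Bex1 values of 0.29 and 0.47 were not called (adjusted p of 0.525 and 0.275). The same scaling moved the median of the difference between the lines with empty vector to 0.62, with 6676 probes higher and 661 lower against 3490 and 3085. The average over the states moved to 0.26, with 6015 higher and 1719 lower against 4487 and 4298. Relative to its median, the empty vector difference was 0.18 for Tubb6, 0.51 for Tuba1a and 0.77, 1.41 and 1.09 for the Map1b probes. Relative to the median of the average, the average difference was 0.34 for Tubb6, 0.21 for Tuba1a, -0.35 for Tubb3, 0.71, 1.23 and 0.89 for the Map1b probes and -2.73 and -3.21 for the Bex1 probes.

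No member probe was called for the empty vector in Hdh109/109 cells by limma, beside 2.92% of all probes, and 0 of the 11 had an unadjusted p under 0.05. Tuba1a differed there by -0.0048, with a 95% interval of -0.33 to 0.32. Stmn1 differed by -0.29, with an interval of -0.61 to 0.04.

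DNRest against the empty vector, both transfected, asks what the construct adds. No member probe was called in either line by limma, beside 0.0985% of all probes in Hdh7/7 and 0.138% in Hdh109/109 cells. In each line 1 of the 11 had an unadjusted p under 0.05. For Hdh109/109 this was Tuba1a, at 13.18 and 13.56 with empty vector and 12.49 and 12.68 with DNRest. The groups did not overlap, and the difference was -0.78 ± 0.15 (adjusted p = 0.185). It passed without background correction (-0.77, adjusted p = 0.0137) and without the first empty vector array (-0.97, adjusted p = 0.0388). For Hdh7/7 it was the third Map1b probe, undetected with empty vector and detected with DNRest, at 0.69 ± 0.25 (adjusted p = 0.61). Without the first empty vector array the difference was 1.03. That value rests on the second empty vector array alone, which had a raw median of 161. Tubb3, a gene of the neuronal set that REST is known for, differed by 0.11 in Hdh7/7 (95% interval -0.52 to 0.74) and by 0.49 in Hdh109/109 cells (-0.14 to 1.12). Its Hdh109/109 DNRest arrays gave 7.06 and 6.39, the higher on the array with a raw median of 104. The Bex1 differences were 0.05 and -0.19 in Hdh7/7 and 0.39 and 0.12 in Hdh109/109 cells.

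**Figure D4:**
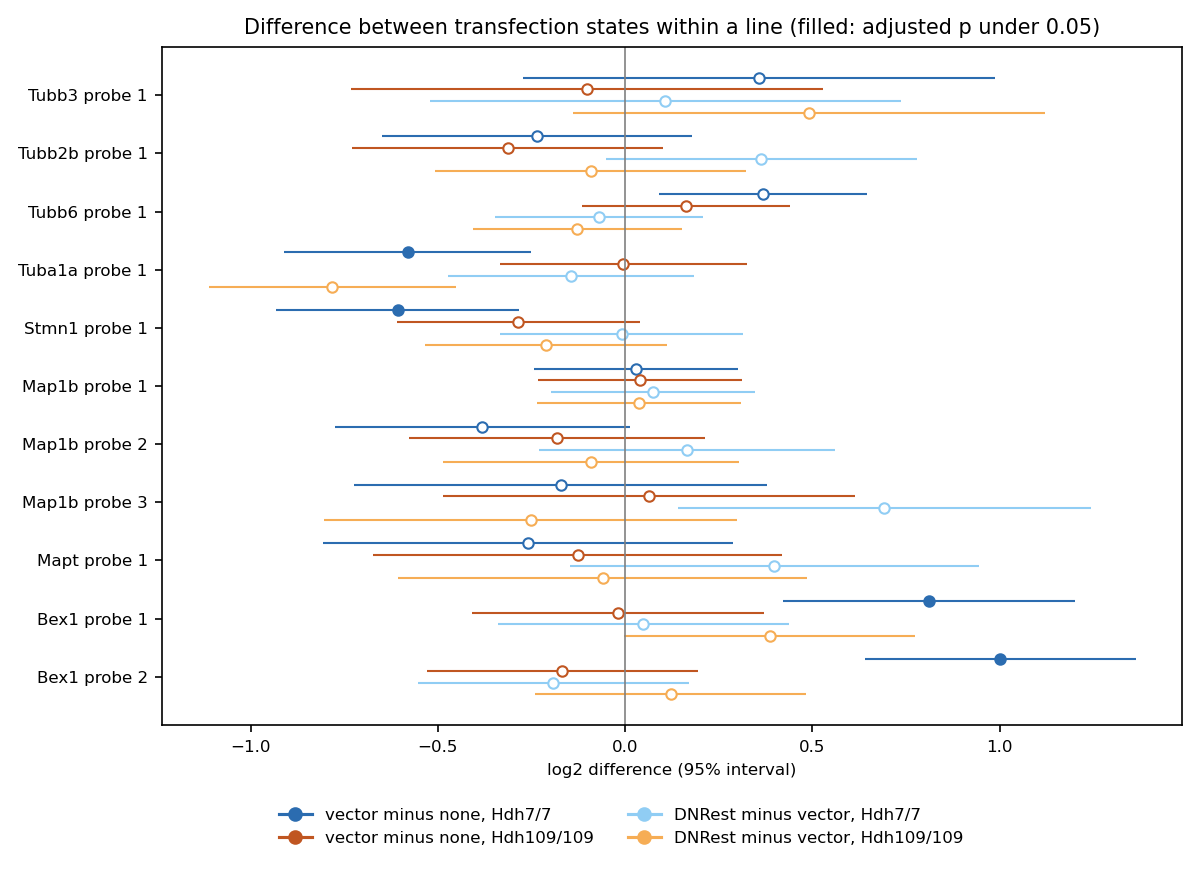
Log2 difference (x axis) of the 11 tested probes (y axis) between empty vector and untransfected cells and between DNRest and empty vector cells, in each line. Bars are 95% intervals from the limma fit and filled points have an adjusted p under 0.05. Filled points occur only for the empty vector in Hdh7/7 cells, for Tuba1a, Stmn1 and both Bex1 probes.

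The difference between the lines in each response was tested as an interaction. For the empty vector 1 of the 11 probes was called, the second Bex1 probe, beside 12% of all probes tested (7.13% higher and 4.91% lower). Its response was 1.00 in Hdh7/7 and -0.17 in Hdh109/109 cells, a difference of -1.17 ± 0.23 (limma adjusted p = 0.0127). Since this probe was undetected on all Hdh109/109 arrays, its response in that line is not a measured change. The call was lost without the 2 arrays of highest raw median (-1.17, adjusted p = 0.0555) and under median scaling (-0.56, adjusted p = 0.365). The first Bex1 probe had a difference of -0.83 ± 0.25 (adjusted p = 0.0558) and Tuba1a one of 0.58 ± 0.21 (adjusted p = 0.1). For DNRest no probe of the 15224 tested was called by limma (0%), although 1247 of them and 2 of the 11 member probes, those of Tuba1a and the third Map1b probe, had an unadjusted p under 0.05. Without the first Hdh7/7 empty vector array the third Map1b probe had a difference of -1.28. Only the array with a raw median of 161 was then left in that group.

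Outside the members, 76 other genes of the microtubule system and the Bex family were listed, of which 63 had a probe and 46 were tested, each by its probe of highest mean level. Averaged over the transfection states 28 of them (60.9%) were called between the lines, 13 higher and 15 lower in Hdh109/109 cells, beside 60.9% of the 8487 genes tested in the same way. The median log2 difference was 0.06, against -0.02 over all genes. Untransfected, 21 were called (45.7%, beside 39% of all genes), with empty vector 18 (39.1%, beside 46.3%) and with DNRest 17 (37%, beside 39.2%). Their shares thus lay near those of all genes.

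Of 9 other tubulins tested, 2 were higher and 3 lower on average. Tubg2, a gamma-tubulin of the nucleating complex, was higher in Hdh109/109 cells by a fitted log2 difference of 2.45 ± 0.19 (limma adjusted p = 2.34e-06), at least 5.45-fold with DNRest where Hdh7/7 cells had no detection, and Tubg1, its paralogue, was 1.41-fold lower (-0.49 ± 0.07, adjusted p = 0.000278). Tuba8, a divergent alpha-tubulin, was called higher at 0.62 ± 0.12 (adjusted p = 0.00113), but it was undetected in every Hdh7/7 group and in untransfected Hdh109/109 cells, so no fold is given. The alpha-tubulins Tuba1b and Tuba1c, close relatives of Tuba1a, were lower by small amounts (-0.21 ± 0.07 and -0.35 ± 0.07, adjusted p of 0.0254 and 0.00267). Of the nucleation and folding genes 3 of 7 were higher and 2 lower. Tubgcp3, of the gamma-tubulin complex, differed by 1.05 ± 0.28 (adjusted p = 0.00825) and the tubulin-folding cofactors Tbcb and Tbcc by 0.61 ± 0.08 and -0.50 ± 0.08 (adjusted p of 0.000105 and 0.000355).

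Of 18 microtubule-associated and stathmin genes 6 were higher and 4 lower on average. Stmn2, the neuronal stathmin of growing axons, differed by a fitted 4.37 ± 0.09 (limma adjusted p = 1.56e-10). With empty vector, where it was undetected in Hdh7/7 cells, it was at least 11.5-fold higher. Map1lc3b, the LC3 protein of autophagosomes that was first described with MAP1 proteins, was 2.39-fold higher (adjusted p = 1.02e-06), and Clip2, a linker protein at growing microtubule ends, 1.87-fold higher (adjusted p = 0.00024). The dendritic protein gene Map2 went the other way, at -0.77 ± 0.12 (adjusted p = 0.000293). Of 11 modification and severing genes 2 were higher and 5 lower. The vasohibin gene Vash2, for a tubulin-detyrosinating enzyme, was 1.60-fold higher (adjusted p = 7.40e-05), while the polyglutamylase-family genes Ttll1 and Ttll5 were 1.45- and 1.44-fold lower (adjusted p of 0.000532 and 0.000344). Ttll7, of the same family, was undetected in all 3 Hdh109/109 groups and was at least 1.14-fold lower without transfection (adjusted p = 0.0344). Bex3, the only other Bex gene tested, was lower by -0.74 ± 0.11 (adjusted p = 0.000264).

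**Figure D5:**
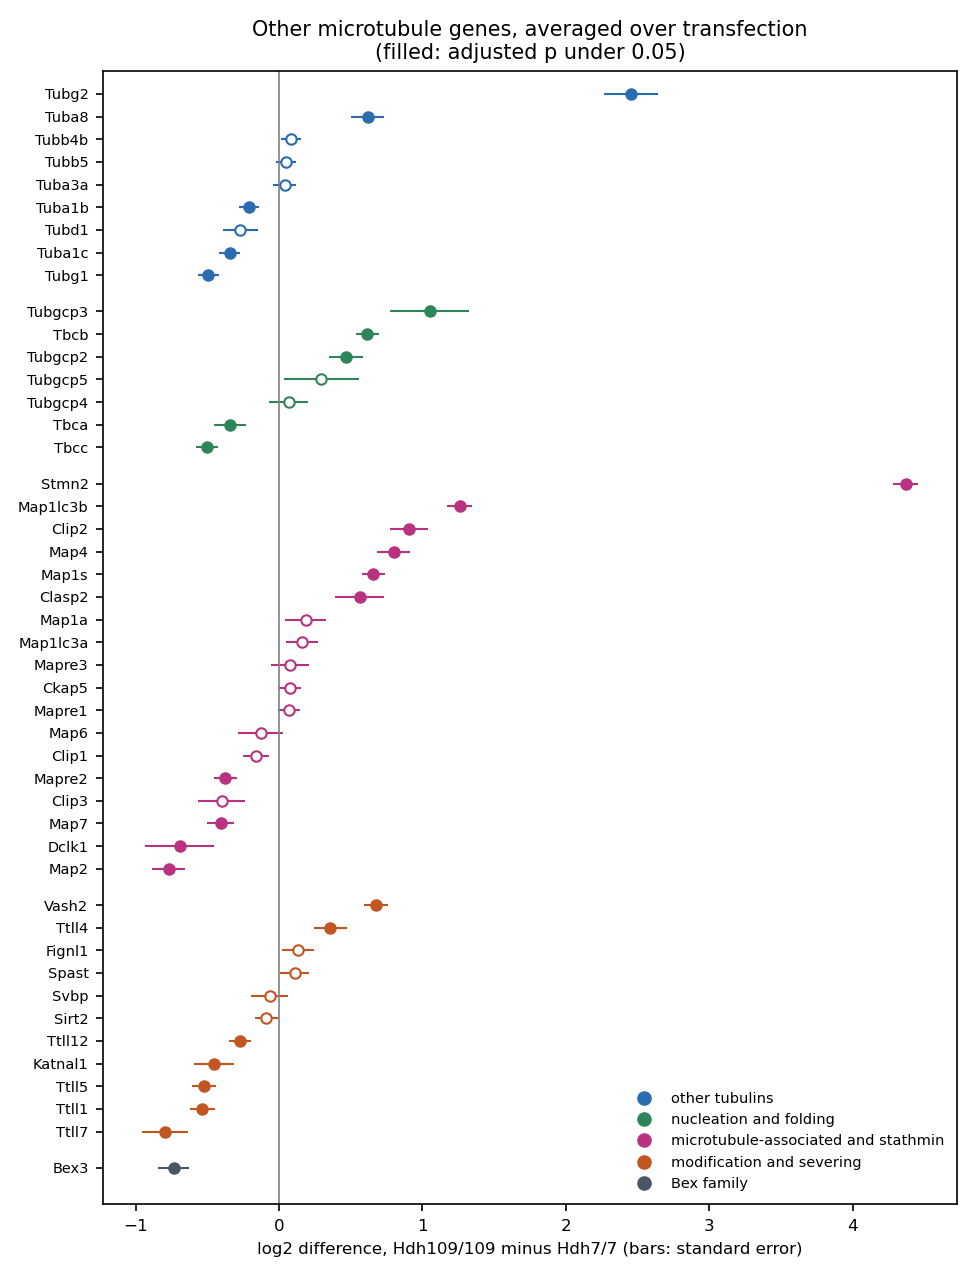
Log2 difference between the lines (Hdh109/109 minus Hdh7/7, x axis), averaged over the transfection states, for the 46 other genes tested (y axis), coloured by class. Bars are standard errors and filled points have an adjusted p under 0.05. Stmn2 and Tubg2 lie farthest to the right, at 4.37 and 2.45.

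With the empty vector, 11 of the 46 genes were called in Hdh7/7 cells (23.9%, beside 17.9% of all genes), 2 higher and 9 lower, and 10 of them belonged to the microtubule-associated and stathmin class. When only the groups compared were fitted, 1 probe of the whole array was called, so at most 1 of these calls stands in that setting. Map7, a microtubule-binding partner of kinesin-1, and Map1a, the relative of Map1b, were called lower (limma adjusted p of 0.00219 and 0.0222). Both were undetected with empty vector, and their bounds give no fold. Clip3, of the linker protein family, was at least 1.08-fold lower (adjusted p = 0.0322) and the end-binding protein gene Mapre3 at least 1.29-fold lower (adjusted p = 0.0202). Among Hdh109/109 groups 1 gene was called (2.17%, beside 3.36%), Stmn2, which fell by 0.94 (adjusted p = 0.0097). Against the empty vector DNRest gave 1 call in Hdh7/7 cells (2.17%, beside 0.118% of all genes), again Stmn2, which rose at least 1.09-fold (adjusted p = 0.0169), and 0 in Hdh109/109 cells by limma, where its difference was 0.43 (adjusted p = 0.372).

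The empty vector response differed between the lines for 5 of the 46 genes (10.9%, beside 14% of all genes), 4 with a positive and 1 with a negative difference. They were Map7, Clip3, Tuba8, Map1lc3b and Ttll12, the first 3 of which were undetected in at least 1 group of each line.

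For each member detected on all 12 arrays, the 2 named genes with the most similar profile were taken from 8326 genes, by Pearson correlation over the 12 arrays. They were Clstn3 and Uncx for Tubb3 (r = 0.949 and 0.944), Cdca5 and Eps8 for Tubb6 (0.981 and 0.978), Adgrg2 and Rnf115 for Tuba1a (0.981 and 0.966), Ftl1 and Vps29 for Stmn1 (0.934 and 0.907) and Fbln1 and Lrrc17 for Map1b (0.992 and 0.99). The arrays share line, transfection and array background, so that these values describe the arrays and carry no test.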

How the data were processed

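RNA from 12 samples was measured on Illumina bead arrays. The table the authors deposited holds, per the file headers, a linear signal intensity and a detection p-value per probe. The log2 values of the deposited series matrix were used only to check identifiers: by probe identifier their rank correlation with the signals was 0.0175 to 0.0341, so no gene was read from them. limma appears in the submitters' processing notes; scanner software and build are not given in the sources used here. Signals were processed here with neqc in limma 3.58.1 (R 4.3.3; background from detection p-values, offset 16, quantile normalization). The filter kept probes detected (p under 0.01) on 2 or more arrays. All 6 group means were estimated together (lmFit, eBayes, 6 residual degrees of freedom), with 1 spread per probe for all groups. The root mean square SD over the probes tested was 0.34 in the Hdh7/7 empty vector group and 0.18 to 0.25 in the others. Standard errors of comparisons with that group may therefore be too small. Each test had 2 sides, and p-values were adjusted by Benjamini-Hochberg across the 15224 probes kept. Standard errors and adjusted p-values are from that limma fit, which was tested on simulated data. The simulation drew independent normal noise and changed few probes in 1 group, whereas much of the array differs between the lines here. It therefore cannot show how well the p-values hold in these data. For probes with no detection in the dimmer of both groups, "at least N-fold" sets the bright mean against, per array, the higher of the lowest detected signal and the probe's own. Symbols came from the platform annotation (28471 probes with 1 symbol, 10 with several, 16024 unnamed). Named were all members, the 2 most similar genes per member, Htt and Rest. Called genes of the microtubule lists were named too, at most 4 per class by size in a comparison. The exception is the class of other tubulins, where every gene called on average was named. The members and lists were chosen with earlier results of these data known. Alternatives were median scaling, no background correction, offset 50, other detection filters, fitting only the groups compared, a replicate block, leaving out arrays, and the source name as genotype.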

Additional observations from a re-analysis of the deposited data

Results flagged for a closer look

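In 6 probes the response to the empty vector differed between the lines by the interaction term (limma, adjusted p under 0.05). Each group held 2 arrays, too few to look for single outlying arrays. The second Bex1 probe had a difference of -1.17 ± 0.23 (SE, Hdh109/109 response minus Hdh7/7 response, adjusted p = 0.0127), with no detection on the Hdh109/109 arrays. Map7 had a difference of 1.51 ± 0.23 (adjusted p = 0.00378), from a response of -1.17 in Hdh7/7 and 0.34 in Hdh109/109 cells. It was detected only in the untransfected Hdh7/7 group, so that the second response is not a measured change. Clip3 had one of 1.45 ± 0.40 (adjusted p = 0.044), from -1.06 and 0.39, and was undetected in Hdh7/7 cells with empty vector and in untransfected Hdh109/109 cells. Tuba8 had one of 1.08 ± 0.28 (adjusted p = 0.0364), from -0.27 and 0.82, and was undetected in every Hdh7/7 group and in untransfected Hdh109/109 cells. Map1lc3b had one of 0.95 ± 0.21 (adjusted p = 0.0203), from -0.56 and 0.39. Ttll12 had one of -0.66 ± 0.19 (adjusted p = 0.0467), from 0.30 and -0.36. The shares of all probes (12%) and of all genes (14%) called in the same test stand beside these.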

How the results depend on the processing

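Recomputing the 110 member differences under the alternatives gave 2150 values, and 562 of the 606 repeats of called values kept direction and call. Of those 606, 372 came from leaving out 1 array. In many of these the array lay outside the groups compared, so the difference could not change and only its error could. The share kept is therefore no measure of independent support. Values called in neither setting changed sign in 74 repeats. Called values changed sign only when the source name replaced the title as genotype: Tubb3 (0.28), the third Map1b probe (-0.038) and the Bex1 probes (0.15 and 0.021), with 0 of the 11 probes called on average against 8. Requiring detection on all 12 arrays leaves fewer member probes and gave 3 calls against 6 without transfection, 3 against 5 with DNRest, 5 against 8 on average and 0 against 1 for the difference between the lines in the empty vector response. For that difference median scaling also gave 0, no background correction 3 and offset 50 gave 2, and leaving out the 2 arrays of highest raw median (chosen after seeing the data) gave 0. No background correction gave 1 call for DNRest in Hdh109/109 cells, against 0. For the empty vector in Hdh7/7 cells the count fell from 4 to 0 with only the groups compared and to 2 without those 2 arrays. Leaving out 1 array at a time gave 5 to 6 calls without transfection, 7 to 8 with empty vector, 4 to 5 with DNRest, 7 to 9 on average, 0 to 1 for DNRest in each line and for the difference in its response, 1 to 5 for the empty vector in Hdh7/7, 0 in Hdh109/109 and 1 to 2 for the difference in its response. The cause of these changes was not tested. With 1 array left in a group, that array is assumed to vary like the others.

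Over all probes the counts of calls without 1 array were 3746 to 6010 (5422 with all) without transfection, 4868 to 6815 (6575) with empty vector, 3485 to 6255 (5596) with DNRest, 703 to 3834 (2387) and 172 to 1090 (444) for the empty vector in Hdh7/7 and Hdh109/109, 7 to 1129 (15) and 11 to 268 (21) for DNRest, and 0 to 825 (0) and 671 to 3453 (1834) for the differences in the DNRest and empty vector responses. With only the groups compared, 1 probe was called for the empty vector in Hdh7/7. Same-numbered arrays showed no common direction of deviation (r of -0.44 to 0.36 over 15 pairs of groups, 2 above 0.1). With the replicate number as a block, all 10 member counts stayed as they were, 6 of 11 without transfection for example, and no member call changed. No slide is named in the labels or columns, so a slide block was not run. Signal near background limits Mapt, Tubb2a, Tubb2b, Tubb3, the third Map1b probe and Bex1 in Hdh109/109 cells.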
